A study of Mus musculus with 24 samples.

Results

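The genes described here are 31 mouse genes of cholesterol and fatty acid synthesis, chosen by symbol from a list of targets and regulators of the sterol regulatory element binding proteins (SREBPs). All 31 are among the 24421 genes of the raw count table, and all 31 passed the filter on low counts that left 13761 genes for testing. They comprise 5 regulators, 19 genes of the sterol branch and 7 genes of the fatty acid branch. The cells are MIN6, an established mouse insulinoma line used as a model of the pancreatic beta cell. They had been transfected with a plasmid expressing either GFP alone, the control, or EIF2A-GFP, a fusion of the eukaryotic translation initiation factor 2A. Each construct was sampled after 1 h or 3 h in 1 µM thapsigargin, and after DMSO vehicle, called 0 h. The 6 groups of 4 libraries make 24 libraries of polyadenylated RNA. No vehicle group was sampled at 1 h or 3 h, so time and handling are part of every comparison with 0 h. The medium of all groups held 22.2 mM glucose and 10% serum, and every group had been transfected, so no untransfected cells were compared. The sources used here do not name the promoter of the plasmid or the share of cells that took it up. Nor do the labels say whether the 4 libraries of a group came from separate cultures, so p-values measure only the spread between these libraries.

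Thapsigargin inhibits SERCA, the pump that fills the calcium store of the endoplasmic reticulum, and protein folding there is disturbed as the store empties. SREBPs are made as precursors in that same membrane, where Scap escorts them to the Golgi for cleavage when sterols are scarce and the Insig proteins hold Scap back when sterols are abundant. The freed fragment enters the nucleus and raises transcription of its targets, SREBP-2 (from Srebf2) mainly those of the mevalonate and sterol route and SREBP-1 (from Srebf1) more those of fatty acid synthesis. In beta cells, excess cholesterol or saturated fatty acid is known to disturb insulin secretion.

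Libraries held 10522758 to 22222701 counts assigned to genes, and members had 47 to 96080 reads in a library. The beta cell label was met: all 8 beta cell markers were found in every library, with a summed level of 43424 to 120613 CPM (the standard read count scaled to a common library size). The 14 markers of other cell types summed to 177 to 959 CPM, with the glucagon gene Gcg at 138 to 921 CPM and the liver gene Alb at 9.45 to 83.6, and the acinar marker Prss1 was at 0 in all 24. The beta cell sum was 81186 to 105323 CPM in GFP cells at 0 h and 43424 to 63371 at 3 h, and in EIF2A-GFP cells 91410 to 111265 at 0 h and 55023 to 65454 at 3 h. Whether its lower level at 3 h has a part in the changes of CPM described here was not tested. Ddit3, a marker of endoplasmic reticulum stress, rose by 1.18 at 1 h and 2.03 at 3 h on the log2 scale in the GFP cells (edgeR, adjusted p = 0.0096 and 9.4e-06) and by 1.11 and 1.70 in the EIF2A-GFP cells (adjusted p = 0.011 and 5.1e-05). Without the libraries numbered 1 these values were 1.41, 2.15, 1.11 and 1.56. Hspa5, the chaperone of the reticulum, was not called, at 0.43 and 0.29 in GFP cells (adjusted p = 0.11 and 0.18) and 0.29 and 0.13 in EIF2A-GFP cells (adjusted p = 0.30 and 0.58). Without those libraries Hspa5 was called in GFP cells at 0.54 and 0.35 and in EIF2A-GFP cells at 1 h at 0.32, and not at 3 h (0.0059, adjusted p = 0.93). The transfected gene itself, Eif2a, went against the labels in the 6 libraries numbered 1. Libraries labelled GFP replicate 1 held 269, 361 and 358 CPM of Eif2a at 0, 1 and 3 h, against 77.8 to 102 in GFP replicates 2 to 4. The libraries labelled EIF2A-GFP replicate 1 held 80.3, 96.9 and 104 CPM, against 134 to 209 in replicates 2 to 4. Groups below follow the labels. Counts of calls and the values of called members are given with all 24 libraries and without the 6 numbered 1, which leaves 3 libraries a group. Replicates 2 to 4 of a group lay much closer to each other than to replicate 1, so p-values without it measure a smaller spread. In bulk RNA, fewer cells that express a gene and less RNA per cell cannot be told apart.

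The promoter letters of 6 members are shown first, because 1 of them holds the classical sterol element and the set spans members that rose, that were not called and that fell. Each line gives the 250 bases before the RefSeq start site on the strand of the gene (GRCm38.p6), with capitals for the NF-Y box CCAAT on either strand and, in Hmgcs1, also for the sterol regulatory element TCACNCCAC.
Hmgcs1 (chr13:119690101-119690350, plus strand): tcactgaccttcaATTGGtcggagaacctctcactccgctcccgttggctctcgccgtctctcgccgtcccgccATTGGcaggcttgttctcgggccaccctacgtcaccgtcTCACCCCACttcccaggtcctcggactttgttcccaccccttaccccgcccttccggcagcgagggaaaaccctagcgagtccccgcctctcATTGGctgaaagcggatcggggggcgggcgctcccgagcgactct
Insig1 (chr5:28071162-28071411, plus strand): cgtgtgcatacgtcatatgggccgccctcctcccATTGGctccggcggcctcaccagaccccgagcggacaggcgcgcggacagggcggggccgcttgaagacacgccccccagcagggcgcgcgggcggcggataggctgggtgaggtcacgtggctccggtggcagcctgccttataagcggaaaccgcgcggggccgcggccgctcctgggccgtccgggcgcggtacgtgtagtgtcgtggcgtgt
Cyp51 (chr5:4104698-4104947, minus strand): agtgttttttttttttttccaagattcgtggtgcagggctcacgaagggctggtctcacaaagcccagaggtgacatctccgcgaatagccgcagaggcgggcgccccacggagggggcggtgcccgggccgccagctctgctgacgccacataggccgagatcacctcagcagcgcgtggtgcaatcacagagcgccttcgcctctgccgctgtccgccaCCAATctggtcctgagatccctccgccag
Msmo1 (chr8:64733579-64733828, minus strand): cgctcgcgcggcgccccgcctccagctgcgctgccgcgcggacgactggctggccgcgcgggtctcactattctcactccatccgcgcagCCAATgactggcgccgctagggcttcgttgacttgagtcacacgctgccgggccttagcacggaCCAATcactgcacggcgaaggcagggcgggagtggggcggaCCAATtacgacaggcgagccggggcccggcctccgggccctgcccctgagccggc
Mvk (chr5:114444019-114444268, plus strand): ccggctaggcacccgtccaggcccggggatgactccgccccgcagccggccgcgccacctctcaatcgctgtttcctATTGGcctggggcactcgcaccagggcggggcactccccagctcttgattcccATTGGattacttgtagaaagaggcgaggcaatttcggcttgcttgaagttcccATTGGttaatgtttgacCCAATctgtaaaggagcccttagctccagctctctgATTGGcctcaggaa
Acat2 (chr17:12960726-12960975, minus strand): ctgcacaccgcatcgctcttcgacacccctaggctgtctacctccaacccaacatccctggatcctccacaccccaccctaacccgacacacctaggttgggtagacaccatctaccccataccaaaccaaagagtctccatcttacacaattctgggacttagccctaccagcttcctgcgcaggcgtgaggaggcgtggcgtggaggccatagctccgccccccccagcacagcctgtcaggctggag

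Hmgcs1, Insig1, Cyp51 and Msmo1 were among the members with the highest fold changes in GFP cells at 3 h, and their 250 bases hold 3, 1, 1 and 3 NF-Y boxes. Mvk has 5 boxes and was called in no comparison with 0 h across all 24 libraries. The promoter of Acat2, which fell, has 0. Boxes were not missing from every member that fell: in the longer windows described next, Ebp has 2, Acly 1 and Fasn 3, and Scap 0. The longer windows, from 250 bases before to 50 after a RefSeq start, covered 25 of the 31 members. Fdps, Fdft1, Sqle, Stard4, Scd1 and Scd2 were not covered. Windows of members on chromosome 18, where Stard4 lies, were left out of the search. An NF-Y box was found in 21 of these 25 (84%), against 41.1% of 27025 genes with an entry, and in 14 of 15 sterol genes, 4 of 5 regulators and 3 of 5 fatty acid genes. The GC box GGGCGG was likewise in 21 of 25, against 38.2% of all genes. The 27025 genes were not limited to the 13761 tested, whereas all 31 members were tested. These shares are thus not matched for expression, and whether expression has a part in the gap was not tested. The window of Acaca, from chr11:84195188, lay inside its annotated gene, which starts at 84129672. The sterol element TCACNCCAC was found in Hmgcs1 alone among the 25 (1.44% of all genes), 137 bases before its start. The E-box CACGTG was in Dhcr7, Hsd17b7, Insig1, Sc5d and Scap (8.09% of all genes), and the ATF4 element TGATGNAA in Idi1 and Insig2 (4.51% of all genes). The ATF4 factor is a transcription factor of the stress response that acts beside Ddit3. All motifs were searched on both strands, a gene with several windows was counted if any held a match, and matches of different motifs may overlap.

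Across all 24 libraries, a few members of the sterol branch rose after thapsigargin in both constructs. A few members, of both branches and Scap, fell at 3 h, no more often than genes at large. A member is called here where edgeR's quasi-likelihood test gave an adjusted p under 0.05, with Benjamini-Hochberg adjustment over all genes tested. In GFP cells at 1 h, 4 of 31 members rose (Srebf1, Fdft1, Sqle and Cyp51) and 0 fell, and 6 had an unadjusted p under 0.05. Of all genes tested, 5.78% rose and 2.39% fell. In GFP cells at 3 h, 9 members rose (background 18.4%) and 4 fell (background 14.6%). Those that rose were Srebf1, Insig1, Hmgcs1, Pmvk, Fdft1, Sqle, Lss, Cyp51 and Msmo1, and those that fell Scap, Ebp, Acat2 and Acly. In EIF2A-GFP cells at 1 h, 3 members rose, namely Srebf1, Sqle and Cyp51 (background 6.55%), and 0 fell (background 3.94%), with 9 at an unadjusted p under 0.05. In EIF2A-GFP cells at 3 h, 5 rose, namely Srebf1, Fdft1, Sqle, Lss and Cyp51 (background 19.6%), and 4 fell, namely Scap, Acat2, Acly and Fasn (background 16.6%). In EIF2A-GFP cells at 3 h the members were thus called no more often than genes at large, in either direction, and at 1 h the counts rest on 3 or 4 genes. DESeq2 called 0 members as falling at 1 h in either construct.

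Across all 24 libraries, same-numbered libraries of a construct varied together, with a median correlation of 0.668 between their deviations from group means. Those means include replicate 1, and without it the median was 0.0863. A paired fit, with the replicate number within construct as a block, was also made. In the paired fit at 1 h, 15 members rose and 3 fell in GFP cells (background 22.9% and 21.6%), and 14 rose and 6 fell in EIF2A-GFP cells (background 21.9% and 23.3%). At 3 h, 16 rose and 7 fell in GFP cells (background 33.6% and 33.5%), and 14 rose and 8 fell in EIF2A-GFP cells (background 32.9% and 33.3%). Without replicate 1, 16 rose and 4 fell at 1 h in GFP cells (background 21.2% and 18.2%) and 17 rose and 7 fell at 3 h (background 32.2% and 30.8%). The EIF2A-GFP counts without replicate 1 were 14 up and 6 down at 1 h (background 20.2% and 21.8%) and 10 up and 8 down at 3 h (background 31.2% and 31.4%). By both of these fits, members rose more often than genes at large in GFP cells at both times and in EIF2A-GFP cells at 1 h. The members were chosen with earlier results of these data known, so this is a description. In EIF2A-GFP cells at 3 h the 10 without replicate 1 were close to the background. Leaving out replicate 2, 3 or 4 in every group left 0 members called as rising at 1 h in either construct. At 3 h the same omissions left 4, 4 and 6 rising (from 9) and 2, 1 and 2 falling in GFP cells, and 1, 1 and 2 rising (from 5) and 4, 3 and 4 falling in EIF2A-GFP cells. The 4 rising at 1 h in GFP cells became 0 or 1 without GFP 0 h replicate 2, 3 or 4, or without any one GFP 1 h library. The 3 in EIF2A-GFP cells became 0 without EIF2A-GFP 0 h replicate 2, 3 or 4 or 1 h replicate 3, 1 without 1 h replicate 2, and 6 without 1 h replicate 1. Shares over all genes are not given for omissions other than replicate 1, so these counts show only how far the calls depend on the libraries used.

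**Figure D1:**
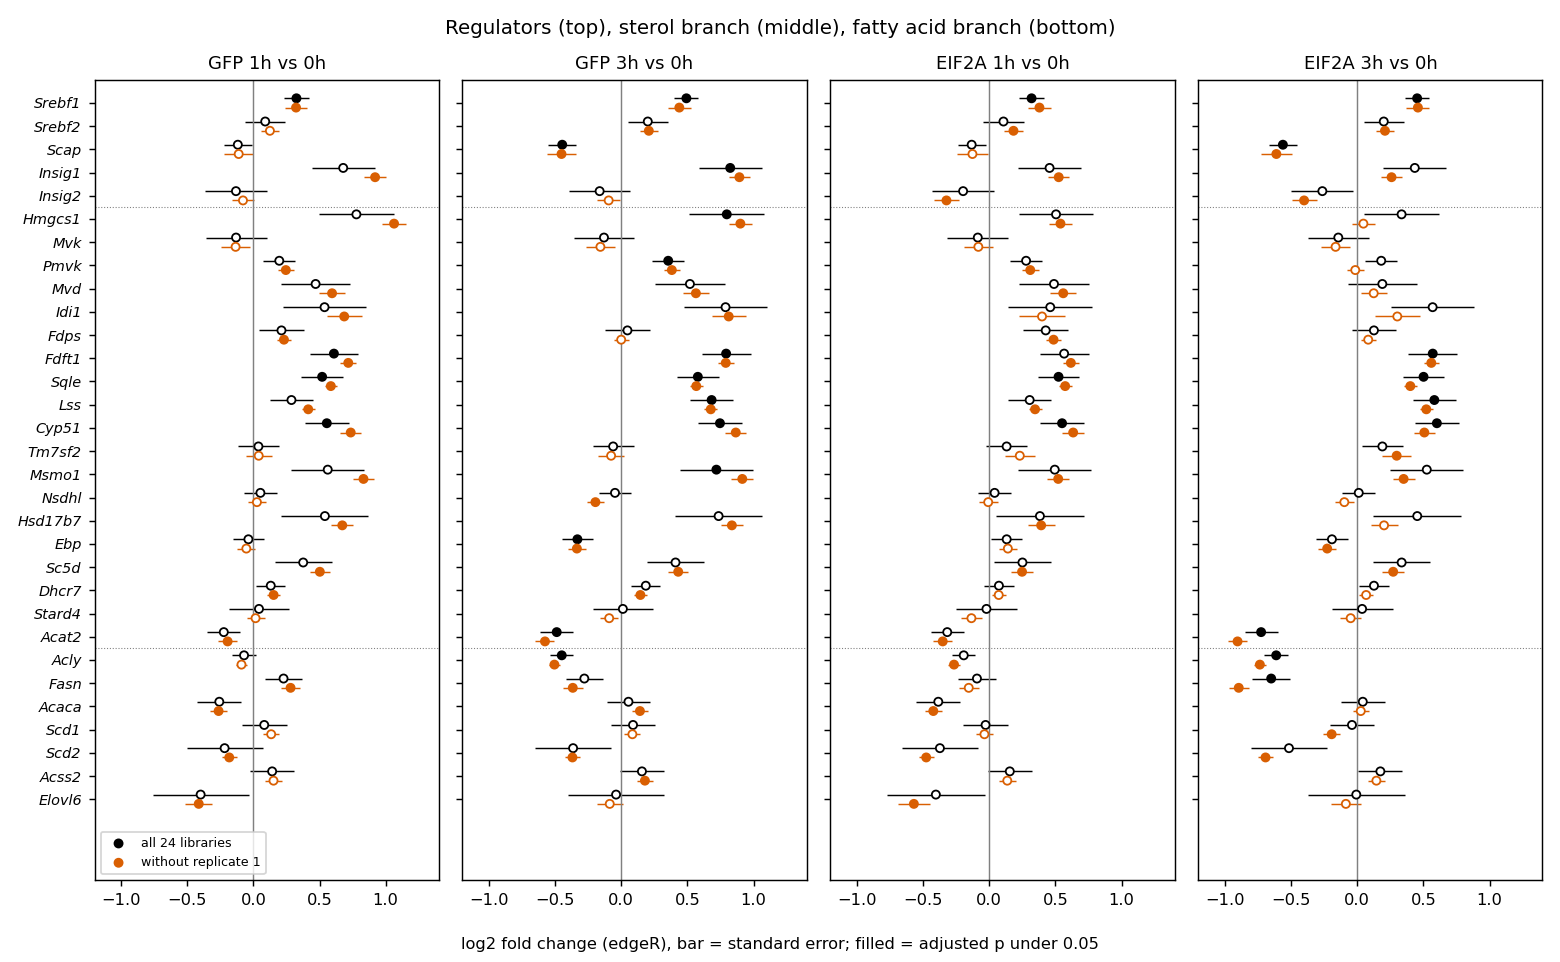
Log2 fold change of each of the 31 members (rows) against 0 h in 4 panels, with edgeR estimates across all 24 libraries in black and without replicate 1 in orange, bars showing the standard error and filled points an adjusted p under 0.05. Most sterol genes lie to the right of 0 in GFP cells, for instance Cyp51 at 0.75 at 3 h, while Acat2, Acly and Scap lie to the left at 3 h in both constructs.

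Among the regulators, Srebf1 rose in all 4 comparisons with 0 h and Scap fell at 3 h in both constructs, while Insig1 had the largest estimate and was called at 3 h in GFP cells. The other two, Srebf2 and Insig2, were not called across all 24 libraries. Srebf1 (chr11:60199089-60222581, minus strand, GRCm38) encodes the SREBP-1 precursor. Srebf1 stood at 312, 344, 362 and 369 at 0 h, 394, 444, 451 and 451 at 1 h, and 493, 452, 482 and 526 at 3 h in GFP libraries 1 to 4, as CPM scaled by TMM factors. Srebf1 in the EIF2A-GFP libraries measured 363, 304, 339 and 337 at 0 h, 402, 395, 411 and 468 at 1 h, and 491, 397, 422 and 528 at 3 h (CPM, libraries 1 to 4). In both constructs every treated library lay above every 0 h library. The log2 fold changes were 0.33 ± 0.09 (SE) at 1 h and 0.49 ± 0.09 at 3 h in GFP cells (adjusted p = 0.031 and 2.6e-04), and 0.32 ± 0.09 and 0.45 ± 0.09 in EIF2A-GFP cells (adjusted p = 0.028 and 5.1e-04). They were 0.32, 0.44, 0.38 and 0.46 without replicate 1, each called.

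Insig1 (chr5:28071363-28078662, plus strand) encodes the membrane protein that retains Scap, and is itself an SREBP target. Insig1 stood at 454, 237, 241 and 235 at 0 h, 519, 470.2, 459 and 420.0 at 1 h, and 739.6, 448, 459 and 418 at 3 h in GFP libraries 1 to 4 (CPM). Insig1 in the EIF2A-GFP libraries measured 373, 285, 291 and 246 at 0 h, 456, 419.5, 415 and 349 at 1 h, and 632, 353, 339.7 and 293 at 3 h (CPM, libraries 1 to 4). Replicate 1 was the highest library of each group, and with it the treated and 0 h groups overlapped, whereas replicates 2 to 4 did not overlap with their 0 h libraries at either time. Insig1 changed in GFP cells by 0.68 ± 0.24 (adjusted p = 0.088) at 1 h and 0.82 ± 0.24 (adjusted p = 0.010) at 3 h. In the paired fit the 1 h value was 0.74 ± 0.13 and was called (adjusted p = 3.8e-04), and without replicate 1 it was 0.92 ± 0.08 (adjusted p = 4.5e-08), with 0.89 at 3 h, also called. In EIF2A-GFP cells the values were 0.46 ± 0.24 (adjusted p = 0.26) at 1 h and 0.44 ± 0.24 (adjusted p = 0.16) at 3 h, both called in the paired fit (adjusted p = 0.0091 and 0.015). Without replicate 1 they were 0.53 and 0.26, again called.

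Scap (chr9:110333288-110384950, plus strand) encodes the escort that carries SREBPs to the Golgi. Scap stood at 77.9, 65.9, 74.2 and 71.6 at 0 h, 71.0, 59.4, 62.9 and 73.6 at 1 h, and 57.7, 47.5, 50.9 and 56.4 at 3 h in GFP libraries 1 to 4 (CPM). Scap in the EIF2A-GFP libraries measured 69.7, 62.6, 70.1 and 84.2 at 0 h, 63.5, 61.0, 62.5 and 74.1 at 1 h, and 52.5, 44.1, 42.8 and 54.6 at 3 h (CPM, libraries 1 to 4). All 3 h libraries lay below all 0 h libraries in both constructs, while the 1 h libraries overlapped with them. Scap changed at 3 h by -0.45 ± 0.11 (adjusted p = 0.0023) in GFP cells and -0.56 ± 0.11 (adjusted p = 2.6e-04) in EIF2A-GFP cells, and at 1 h -0.12 and -0.13, neither called. Both 3 h values were also called without replicate 1, at -0.45 and -0.61. A transcript annotated on the opposite strand covers 13.2% of the exonic bases of Scap. Srebf2, the SREBP-2 precursor, had log2 fold changes of 0.20 and 0.20 at 3 h (adjusted p = 0.35 and 0.34). In the paired fit Srebf2 stood at 0.20 and 0.20 and was called both times (adjusted p = 6.6e-04 and 9.7e-04), as it was without replicate 1 (0.21 and 0.21). Insig2, the second retention protein, had negative estimates throughout, -0.16 in GFP and -0.26 in EIF2A-GFP cells at 3 h, called in the paired fit (adjusted p = 0.034 and 8.4e-04). Without replicate 1 Insig2 stood at -0.10, not called, in GFP cells and at -0.40, called, in EIF2A-GFP cells.

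**Figure D2:**
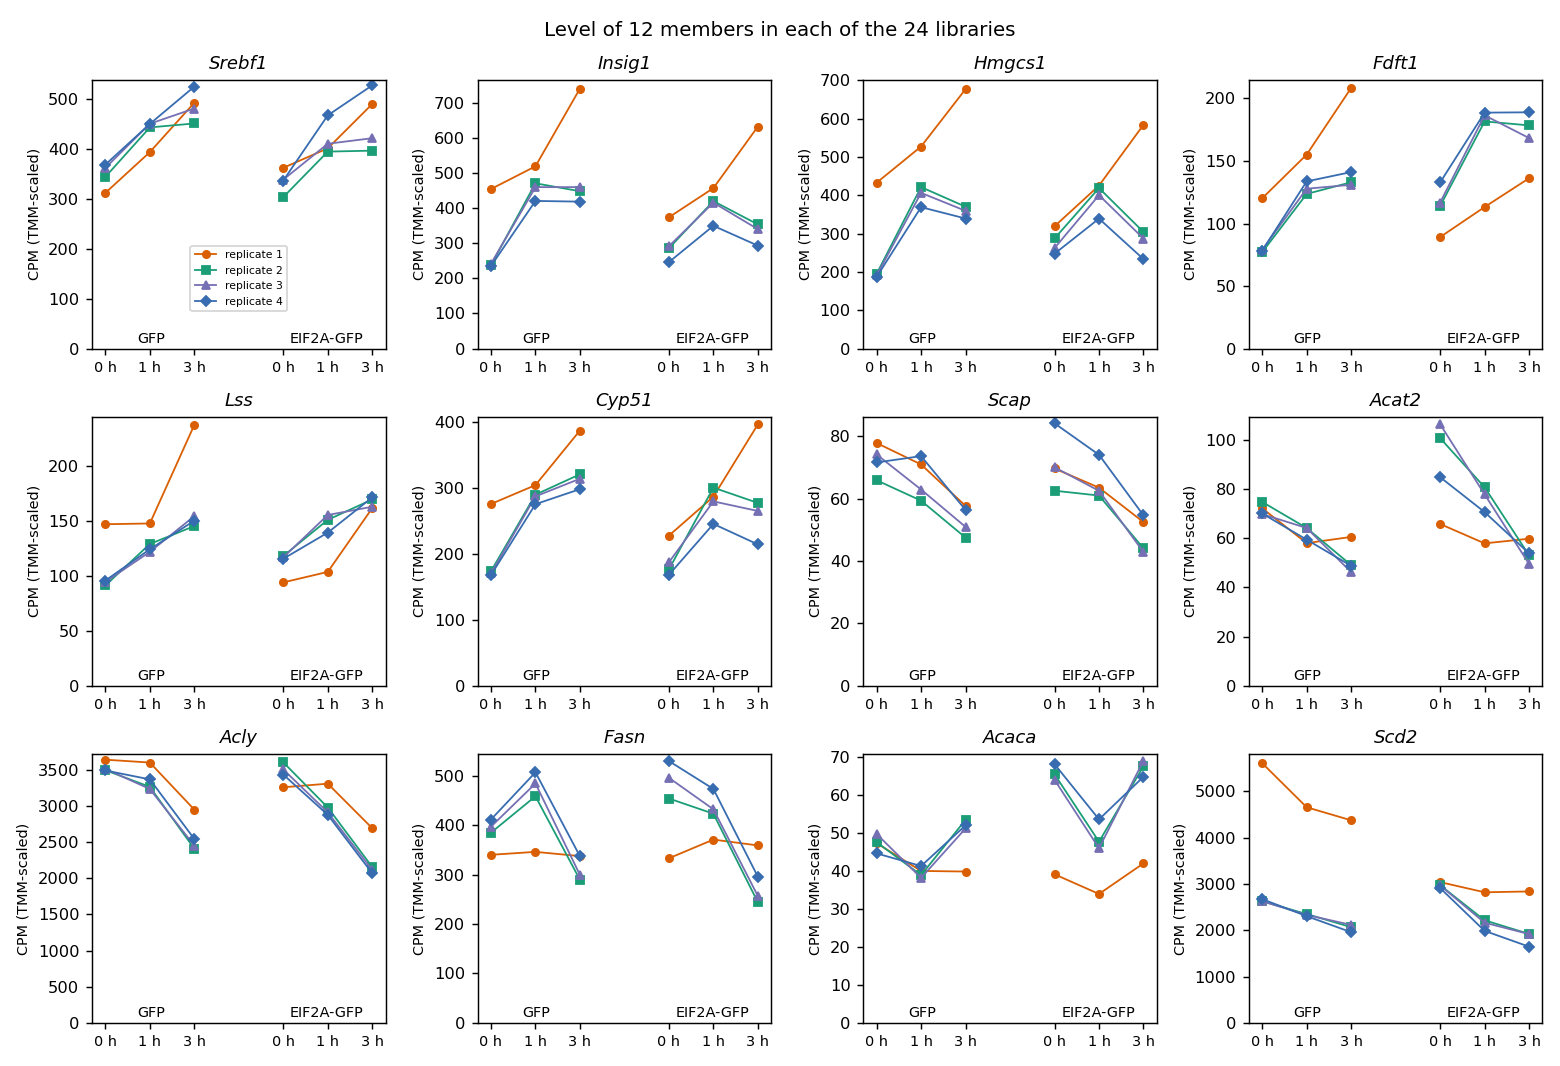
CPM (TMM-scaled, linear axes from 0) of 12 members in each library at 0, 1 and 3 h, with lines joining libraries of the same number and replicate 1 in orange circles. Insig1, Hmgcs1, Fdft1, Lss and Cyp51 climb from 0 h in GFP cells, Acly declines at 3 h in every replicate, and Scd2 of GFP replicate 1 starts at 5607 CPM, above all other libraries.

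In the first steps of the sterol branch, Hmgcs1 and Pmvk rose at 3 h in GFP cells, and in EIF2A-GFP replicates 2 to 4 both were highest at 1 h. Hmgcs1 (chr13:119690379-119708260, plus strand) encodes the synthase that makes HMG-CoA and carries the sterol element shown above. Hmgcs1 stood at 433, 195, 191 and 187 at 0 h, 527, 421, 406 and 369 at 1 h, and 677, 370.3, 359 and 339 at 3 h in GFP libraries 1 to 4 (CPM). Hmgcs1 in the EIF2A-GFP libraries measured 319, 287, 262 and 247 at 0 h, 425, 419, 400.4 and 339 at 1 h, and 584, 304, 287 and 233 at 3 h (CPM, libraries 1 to 4). GFP replicate 1 at 0 h lay above all 1 h and 3 h libraries of GFP replicates 2 to 4, which were in turn all above their own 0 h libraries. Hmgcs1 changed in GFP cells by 0.78 ± 0.28 (adjusted p = 0.1) at 1 h, and 0.80 ± 0.28 (adjusted p = 0.035) at 3 h. In the paired fit the 1 h value was 0.87 ± 0.17 and called (adjusted p = 8.8e-04), and it was 1.06 ± 0.09 without replicate 1 (adjusted p = 2.8e-08), where the 3 h value was 0.90 and also called. In EIF2A-GFP cells, Hmgcs1 changed by 0.50 ± 0.28 (adjusted p = 0.3) at 1 h and 0.34 ± 0.28 (adjusted p = 0.39) at 3 h. Only the 1 h value was called in the paired fit (adjusted p = 0.023, against 0.17 at 3 h), and without replicate 1 the 2 values were 0.54, called, and 0.05, not called. An antisense gene covers 12.1% of the exonic bases of Hmgcs1.

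Pmvk (chr3:89454541-89469013, plus strand) encodes phosphomevalonate kinase. Pmvk stood at 112, 116, 121 and 115 at 0 h, 114, 145, 148 and 126 at 1 h, and 135, 156, 158 and 147 at 3 h in GFP libraries 1 to 4 (CPM). Pmvk in the EIF2A-GFP libraries measured 119, 144, 156 and 139.8 at 0 h, 133, 191, 182 and 171 at 1 h, and 198, 142, 151 and 142 at 3 h (CPM, libraries 1 to 4). The 3 h libraries of GFP cells were all above their 0 h libraries, whereas in EIF2A-GFP cells only replicate 1 stood clear of them at 3 h. Pmvk changed by 0.35 ± 0.12 (adjusted p = 0.026) at 3 h in GFP cells and 0.18 ± 0.12 (adjusted p = 0.26) in EIF2A-GFP cells. Without replicate 1 these were 0.38, called, and -0.01, not called. Of the neighbouring steps, Mvk and Mvd, which encode mevalonate kinase and the decarboxylase, were not called across all 24 libraries. Mvd had estimates of 0.47 and 0.52 in GFP cells, called in the paired fit (adjusted p = 0.0071 and 0.0025) and without replicate 1 (0.59 and 0.56). In EIF2A-GFP cells Mvd stood at 0.49 and 0.19, and the paired fit called the 1 h value (adjusted p = 0.011) and not the 3 h value (adjusted p = 0.15). Mvk had -0.13 and -0.13 in GFP cells and -0.09 and -0.14 in EIF2A-GFP cells, with the 3 h values called in the paired fit (adjusted p = 0.035 and 0.029) and neither called without replicate 1. Idi1, the isomerase that makes the reactive isoprene unit, was the least abundant member per exonic length, and changed by 0.54 and 0.79 in GFP cells, called in the paired fit (adjusted p = 3.4e-04 and 6.1e-07). In EIF2A-GFP cells Idi1 stood at 0.46 and 0.57, also called in the paired fit (adjusted p = 0.0078 and 8.7e-04). Without replicate 1 Idi1 was called in GFP cells (0.69 and 0.81) and not in EIF2A-GFP cells (0.40 and 0.30). Fdps, which joins these units to farnesyl diphosphate, changed by 0.21 at 1 h and 0.05 at 3 h in GFP cells, and by 0.43 and 0.13 in EIF2A-GFP cells. The paired fit called Fdps at 1 h in both constructs (adjusted p = 0.011 and 2.4e-05) and at 3 h in neither, as did the fit without replicate 1 (0.23 and 0.49 at 1 h). Fdps shares 26.7% of its exonic bases with another gene on the same strand, so part of its reads could not be assigned with certainty.

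The 3 enzymes that commit farnesyl diphosphate to sterols, Fdft1, Sqle and Lss, all rose at 3 h in both constructs. Fdft1 (chr14:63145150-63179578, minus strand), squalene synthase, stood at 120.2, 77.1, 79.0 and 78.3 at 0 h, 155, 124, 128 and 134 at 1 h, and 208, 133, 131 and 141 at 3 h in GFP libraries 1 to 4 (CPM). Fdft1 in the EIF2A-GFP libraries measured 89.2, 114, 117 and 133 at 0 h, 113, 182, 187 and 189 at 1 h, and 136, 178, 168 and 189 at 3 h (CPM, libraries 1 to 4). In the GFP cells all treated libraries exceeded all 0 h libraries, and in EIF2A-GFP cells this held at 3 h. The log2 fold changes were 0.61 ± 0.18 and 0.79 ± 0.18 in GFP cells (adjusted p = 0.044 and 0.0021), and 0.57 ± 0.18 and 0.57 ± 0.18 in EIF2A-GFP cells (adjusted p = 0.053 and 0.019). The 1 h value in EIF2A-GFP cells, which missed the threshold, was called in the paired fit (0.55, adjusted p = 8.1e-08) and without replicate 1 (0.62). The other values of Fdft1 without replicate 1 were 0.72 and 0.79 in GFP cells and 0.56 in EIF2A-GFP cells at 3 h, each called. Ctsb, on the opposite strand, covers 18.3% of the exonic bases of Fdft1.

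Sqle (chr15:59315077-59331192, plus strand), squalene epoxidase, stood at 186, 144, 141 and 144 at 0 h, 238, 213, 219 and 213 at 1 h, and 283, 208, 214 and 215 at 3 h in GFP libraries 1 to 4 (CPM). Sqle in the EIF2A-GFP libraries measured 173, 125, 124 and 133 at 0 h, 229.8, 202, 186 and 180.4 at 1 h, and 281, 170.1, 171 and 163 at 3 h (CPM, libraries 1 to 4). Treated and 0 h libraries did not overlap, except at 3 h in EIF2A-GFP cells, where replicate 1 at 0 h was above 3 of the 3 h libraries. The log2 fold changes were 0.52 ± 0.16 and 0.58 ± 0.16 in GFP cells (adjusted p = 0.044 and 0.0066) and 0.52 ± 0.16 and 0.50 ± 0.16 in EIF2A-GFP cells (adjusted p = 0.036 and 0.015). Sqle was also called in all 4 comparisons without replicate 1, at 0.59, 0.57, 0.57 and 0.40.

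Lss (chr10:76531588-76557138, plus strand), which closes the sterol rings to make lanosterol, stood at 147, 91.1, 94.3 and 95.6 at 0 h, 148, 129, 122 and 124 at 1 h, and 237, 145, 154 and 150.0 at 3 h in GFP libraries 1 to 4 (CPM). Lss in the EIF2A-GFP libraries measured 93.9, 118, 117 and 115 at 0 h, 103, 151, 155 and 139 at 1 h, and 162, 169, 163 and 171 at 3 h (CPM, libraries 1 to 4). Its 3 h libraries were above the 1 h libraries of the same number in all 8 pairs. GFP replicate 1 was the highest library of each GFP group, and EIF2A-GFP replicate 1 the lowest of each EIF2A-GFP group. The log2 fold change was 0.29 at 1 h (adjusted p = 0.35) and 0.68 at 3 h (adjusted p = 0.0025) in GFP cells. In EIF2A-GFP cells it was 0.31 (adjusted p = 0.27) and 0.58 (adjusted p = 0.0073). Both 1 h values were called in the paired fit (adjusted p = 0.0013 and 0.0024) and without replicate 1 (0.41 and 0.35), where the 3 h values of 0.68 and 0.52 were called too.

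Downstream of lanosterol, Cyp51 rose in all 4 comparisons with 0 h, Msmo1 rose and Ebp fell at 3 h in GFP cells, and the other genes were not called across all 24 libraries. Cyp51 (chr5:4081145-4104746, minus strand), lanosterol demethylase, stood at 275, 173, 170.1 and 168 at 0 h, 304, 289, 287 and 275 at 1 h, and 387, 320.3, 314 and 298 at 3 h in GFP libraries 1 to 4 (CPM). Cyp51 in the EIF2A-GFP libraries measured 227, 176, 187 and 168 at 0 h, 286, 300.1, 279 and 245 at 1 h, and 396, 277, 265 and 214 at 3 h (CPM, libraries 1 to 4). GFP replicate 1 at 0 h reached the 1 h level of GFP replicate 4, and all GFP libraries at 3 h were above all at 0 h. The log2 fold changes were 0.56 ± 0.17 and 0.75 ± 0.17 in GFP cells (adjusted p = 0.041 and 0.0014) and 0.55 ± 0.17 and 0.60 ± 0.17 in EIF2A-GFP cells (adjusted p = 0.037 and 0.0066). Without replicate 1 the values were 0.74, 0.87, 0.63 and 0.51, all called.

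Msmo1 (chr8:64718139-64733792, minus strand), the methylsterol oxidase of the next step, stood at 258, 100.2, 102 and 106 at 0 h, 286, 192, 182 and 175 at 1 h, and 349.8, 207, 188 and 187 at 3 h in GFP libraries 1 to 4 (CPM). Msmo1 in the EIF2A-GFP libraries measured 155, 143, 128 and 131 at 0 h, 208, 209.9, 197 and 172 at 1 h, and 289, 186, 181 and 147 at 3 h (CPM, libraries 1 to 4). GFP replicate 1 was above every other library at the same time, and its 0 h library exceeded all 1 h and 3 h libraries of GFP replicates 2 to 4. The log2 fold change at 3 h in GFP cells was 0.72 ± 0.28, just inside the threshold (adjusted p = 0.050). It was 0.78 ± 0.13 in the paired fit (adjusted p = 7.4e-05) and 0.91 ± 0.08 without replicate 1 (adjusted p = 1.2e-08). The values at 1 h in GFP cells, and at 1 h and 3 h in EIF2A-GFP cells, were 0.56, 0.50 and 0.53, called only in the paired fit (adjusted p = 8.4e-04, 0.0060 and 0.0035) and without replicate 1 (0.83, 0.52 and 0.35). Hsd17b7, which reduces the ketone left by this demethylation, showed a like pattern, with 0.54 and 0.74 in GFP cells (paired adjusted p = 3.7e-05 and 8.7e-08) and 0.38 and 0.45 in EIF2A-GFP cells (paired adjusted p = 0.0043 and 0.0016). Without replicate 1 Hsd17b7 was called in GFP cells (0.67 and 0.84) and at 1 h in EIF2A-GFP cells (0.39), where the 3 h value was 0.20. Nsdhl, the dehydrogenase of the same complex, had estimates of 0.05 and -0.05 in GFP cells and was not called in the paired fit, and without replicate 1 it was called as lower at 3 h (-0.20). In EIF2A-GFP cells Nsdhl was higher than at 0 h in 2 of 4 same-numbered pairs at 1 h and in 1 of 4 at 3 h. Tm7sf2, a sterol reductase, had 0.04 and -0.06 in GFP cells. In EIF2A-GFP cells it had 0.13 and 0.19, and the 3 h value was called in the paired fit (adjusted p = 0.042) and without replicate 1 (0.30). The EIF2A-GFP pair numbered 1 went the other way, at -0.09 and -0.06. Tm7sf2 shares 12.1% of its exonic bases with Vps51 on the same strand, so part of its reads could not be assigned with certainty.

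Ebp (chrX:8185329-8193512, minus strand), which shifts the ring double bond, stood at 73.5, 66.3, 68.5 and 64.3 at 0 h, 73.7, 59.9, 65.0 and 67.0 at 1 h, and 58.8, 51.0, 49.7 and 57.0 at 3 h in GFP libraries 1 to 4 (CPM). Ebp in the EIF2A-GFP libraries measured 63.8, 84.5, 88.4 and 86.1 at 0 h, 68.2, 95.8, 89.8 and 99.7 at 1 h, and 61.2, 68.1, 72.3 and 81.1 at 3 h (CPM, libraries 1 to 4). The 3 h libraries of GFP cells were all below the 0 h libraries, and in EIF2A-GFP cells each 3 h library was below the 0 h library of its number. Ebp changed by -0.33 ± 0.12 (adjusted p = 0.035) at 3 h in GFP cells, and by -0.19 ± 0.12 (adjusted p = 0.23) in EIF2A-GFP cells, where the paired fit called it (adjusted p = 0.0044). Without replicate 1 these were -0.34 and -0.23, both called. The next enzymes, Sc5d and Dhcr7, had estimates above 0. Sc5d changed by 0.38 and 0.41 in GFP cells and 0.25 and 0.34 in EIF2A-GFP cells, all called in the paired fit (adjusted p from 1.1e-06 to 0.0023) and without replicate 1 (0.50, 0.43, 0.25 and 0.27). Dhcr7, the final reductase, changed by 0.13 and 0.19 in GFP cells (paired adjusted p = 0.035 and 0.0032), and by 0.15 and 0.14 without replicate 1, both called. In EIF2A-GFP pairs 1 to 4 the log2 changes of Dhcr7 were 0.08, 0.11, 0.06 and 0.04 at 1 h. At 3 h they were 0.31, 0.08, -0.0020 and 0.13. Treated and 0 h libraries of that construct overlapped at both times, with and without replicate 1. Stard4, a carrier of cholesterol between membranes, lay between -0.02 and 0.04 in the 4 comparisons and was called neither in the paired fit nor without replicate 1.

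Acat2 (chr17:12942890-12960747, minus strand), the cytosolic thiolase that joins acetyl-CoA units ahead of Hmgcs1, went the other way from its branch. Acat2 stood at 72.2, 74.8, 69.9 and 70.1 at 0 h, 58.0, 64.2, 64.2 and 59.4 at 1 h, and 60.6, 49.1, 46.2 and 48.8 at 3 h in GFP libraries 1 to 4 (CPM). Acat2 in the EIF2A-GFP libraries measured 65.8, 101, 106 and 84.9 at 0 h, 57.9, 80.8, 77.9 and 70.7 at 1 h, and 59.8, 53.1, 49.5 and 53.9 at 3 h (CPM, libraries 1 to 4). All 3 h libraries lay below all 0 h libraries in each construct, and replicate 1 spanned the narrowest range of the EIF2A-GFP libraries. Acat2 fell at 3 h, with log2 fold changes of -0.49 ± 0.12 (adjusted p = 0.0043) in GFP cells and -0.73 ± 0.12 (adjusted p = 1.0e-04) in EIF2A-GFP cells. Without replicate 1 it was -0.58 and -0.90, both called, and the 1 h values of -0.19 and -0.35 were then called as well.

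In the fatty acid branch, 0 of 7 genes rose across all 24 libraries in any comparison with 0 h, by edgeR or by DESeq2. An unadjusted p under 0.05 was found for 0 of the 7 at 1 h and 1 at 3 h in GFP cells, and for 2 at each time in EIF2A-GFP cells. A single gene fell at 3 h in GFP cells, Acly, and 2 in EIF2A-GFP cells, Acly and Fasn. Set against the 14.6% and 16.6% of all genes tested that fell at 3 h, and the 5.78% to 19.6% that rose in the 4 comparisons, counts of 0 to 2 among 7 genes are too small for anything particular to the branch to be read from them. Without replicate 1, the genes of the branch that rose and fell numbered 1 and 3 at 1 h and 2 and 3 at 3 h in GFP cells, and 0 and 4 at each time in EIF2A-GFP cells. Acly (chr11:100476353-100528000, minus strand), which splits citrate to supply cytosolic acetyl-CoA, was the most abundant member per exonic length. Acly stood at 3639, 3493, 3512 and 3489.7 at 0 h, 3599, 3263, 3234 and 3366 at 1 h, and 2948, 2407, 2449 and 2542 at 3 h in GFP libraries 1 to 4 (CPM). Acly in the EIF2A-GFP libraries measured 3257, 3602, 3503 and 3433 at 0 h, 3307, 2977, 2911 and 2876 at 1 h, and 2691, 2154, 2114 and 2067 at 3 h (CPM, libraries 1 to 4). Every 3 h library lay below every 0 h library in both constructs, with replicate 1 the highest of each treated group. Acly fell at 3 h, with log2 fold changes of -0.45 ± 0.09 (adjusted p = 4.6e-04) in GFP cells and -0.61 ± 0.09 (adjusted p = 1.5e-05) in EIF2A-GFP cells. At 1 h it was -0.07 and -0.19, and the second was called in the paired fit (adjusted p = 0.0073). Without replicate 1 Acly stood at -0.51 and -0.74 at 3 h, both called.

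Fasn (chr11:120805846-120824547, minus strand), the fatty acid synthase, stood at 340.0, 385, 397 and 411 at 0 h, 346, 458, 484 and 507 at 1 h, and 337, 289, 299 and 337 at 3 h in GFP libraries 1 to 4 (CPM). Fasn in the EIF2A-GFP libraries measured 333, 454, 496 and 529.6 at 0 h, 371, 423, 432 and 473 at 1 h, and 359, 244, 256 and 295 at 3 h (CPM, libraries 1 to 4). Replicates 2 to 4 of the GFP cells went up at 1 h and below their 0 h level at 3 h, whereas replicate 1 of both constructs stayed between 333 and 371 CPM. Fasn changed at 3 h by -0.28 ± 0.14 (adjusted p = 0.14) in GFP cells and -0.65 ± 0.14 (adjusted p = 0.0011) in EIF2A-GFP cells. Without replicate 1, Fasn was called as higher at 1 h in GFP cells (0.28, adjusted p = 0.0056) and lower at 3 h in both constructs (-0.37 and -0.89). The 1 h estimate in EIF2A-GFP cells was -0.15 ± 0.08 (adjusted p = 0.11) without replicate 1.

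Acaca, which makes malonyl-CoA for Fasn, and Elovl6, which elongates the product, were not called across all 24 libraries, and in the paired fit both were lower at 1 h than at 0 h. Acaca stood at 47.3, 47.6, 49.7 and 44.6 at 0 h, 39.97, 38.9, 38.1 and 41.3 at 1 h, and 39.8, 53.4, 51.2 and 52.0 at 3 h in GFP libraries 1 to 4 (CPM). Acaca in the EIF2A-GFP libraries measured 39.1, 65.4, 64.0 and 68.1 at 0 h, 33.9, 47.7, 45.9 and 53.5 at 1 h, and 42.0, 67.5, 69.0 and 64.8 at 3 h (CPM, libraries 1 to 4). All 8 same-numbered pairs were lower at 1 h than at 0 h, and 6 of 8 were higher at 3 h than at 0 h. The 1 h log2 fold changes, -0.26 and -0.38, were not called across all 24 libraries (adjusted p = 0.44 and 0.16) and were called in the paired fit (adjusted p = 0.0033 and 9.8e-05) and without replicate 1 (-0.26 and -0.42). Elovl6 likewise changed by -0.40 and -0.40 at 1 h, lower in 8 of 8 pairs, and was called in the paired fit (adjusted p = 0.0010 and 0.0015) and without replicate 1 (-0.41 and -0.57). Elovl6 measured 16.5, 52.8, 54.5 and 53.4 CPM in GFP cells at 0 h, so that replicate 1 stood far below the others.

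The stearoyl-CoA desaturases Scd1 and Scd2, which introduce the double bond of monounsaturated fatty acids, differed from each other. Scd2 ranged from 2623 to 2671 CPM in GFP replicates 2 to 4 at 0 h and from 1957 to 2115 at 3 h. At 1 h Scd2 was already below its 0 h level in 4 of 4 same-numbered pairs of each construct. The log2 changes at 1 h were -0.27, -0.16, -0.17 and -0.21 in GFP pairs 1 to 4. In EIF2A-GFP pairs 1 to 4 they were -0.11, -0.42, -0.46 and -0.55. Scd2 fell in the paired fit by 0.37 at 3 h in GFP cells and by 0.55 in EIF2A-GFP cells (adjusted p = 2.8e-05 and 5.7e-08). Across all 24 libraries its estimates were -0.36 ± 0.29 (adjusted p = 0.37), and -0.52 ± 0.29 (adjusted p = 0.17), and without replicate 1 they were -0.37 and -0.69, both called. Scd1 had estimates of 0.09 and -0.04 at 3 h (adjusted p = 0.74 and 0.89), and without replicate 1 0.08, not called, and -0.19, called. The 2 genes are close copies, and no source used here says how reads that match both were counted, so their split is uncertain. Acss2, which makes acetyl-CoA from acetate, had estimates of 0.14 to 0.18 in the 4 comparisons, called in the paired fit (adjusted p from 0.0076 to 0.033). Without replicate 1 Acss2 was called at 3 h in GFP cells (0.18) and in no other comparison with 0 h.

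Set against each other, the sterol branch lay above the fatty acid branch in its change from 0 h in every same-numbered pair. The mean of log2 CPM over the 19 sterol genes changed by 0.308 ± 0.133 (SD, n = 4 pairs) at 1 h and 0.336 ± 0.0365 at 3 h in GFP cells. For the 7 fatty acid genes the changes were -0.0667 ± 0.0291 and -0.112 ± 0.0462. In EIF2A-GFP cells the sterol mean changed by 0.265 ± 0.063 and 0.207 ± 0.178, and the fatty acid mean by -0.192 ± 0.128 and -0.244 ± 0.223. The difference between branches was 0.375 ± 0.108 and 0.448 ± 0.0628 in GFP cells at 1 and 3 h, and 0.457 ± 0.177 and 0.450 ± 0.0612 in EIF2A-GFP cells. Its lowest value in a pair was 0.198 and its highest 0.594. These means over chosen genes are a description and carry no test.

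In medians of fold changes across all 24 libraries, the sterol branch stood at 0.29 and 0.41 in GFP cells at 1 and 3 h and at 0.31 and 0.19 in EIF2A-GFP cells. The fatty acid branch stood at -0.07 and -0.04, and at -0.19 and -0.04, and all genes tested at -0.0059 and -0.0024, and at -0.016 and -0.010. Without replicate 1, the difference of branch means was 0.429 and 0.470 in GFP cells and 0.543 and 0.468 in EIF2A-GFP cells. The EIF2A-GFP values at 3 h were spread by replicate 1, which had the highest change in both branches. Without it the sterol mean changed by 0.119 and the fatty acid mean by -0.350. Without Acly and Acss2, whose product feeds both branches, the difference was between 0.416 and 0.526. The direction of the fatty acid mean at 3 h in GFP cells depended on the scaling, since with library totals alone it was 0.0057. In EIF2A-GFP cells at 3 h that scaling moved the fatty acid mean to -0.0845 and the sterol mean to 0.365, and it moved the sterol mean in GFP cells to 0.454. That scaling moved the median of all genes tested by 0.12 in GFP and 0.16 in EIF2A-GFP cells at 3 h, and left the difference between branches at 0.448 and 0.450. A literal median of levels over the members of a branch, which is the level of 1 gene, gave differences of -0.132 and -0.156 in GFP cells, opposite in sign to the mean, and 0.186 and 0.0956 in EIF2A-GFP cells. The median of the genes' own changes, added after the data were seen, gave 0.430 and 0.478 in GFP cells and 0.508 and 0.377 in EIF2A-GFP cells.

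**Figure D3:**
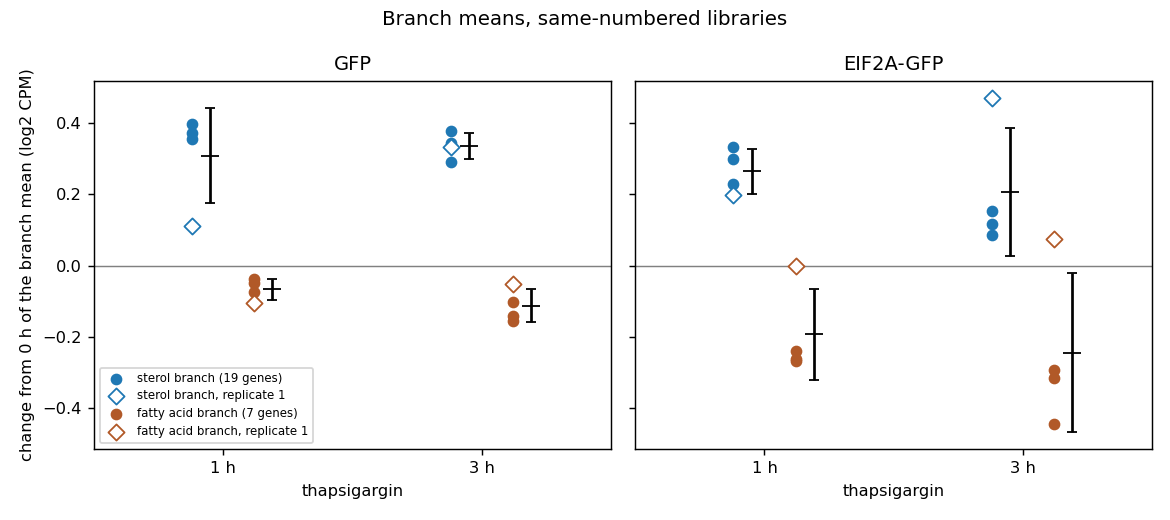
Change from 0 h in the mean log2 CPM of the 19 sterol genes (blue) and the 7 fatty acid genes (brown) for each same-numbered pair at 1 and 3 h, with open diamonds for replicate 1 and black marks for the mean and SD of 4 pairs. In each construct and at each time all 4 sterol values lie above 0 and above all fatty acid values of the same number, by at least 0.198.

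From 1 h to 3 h Acly and Fasn fell in both constructs, and 0 sterol genes rose across all 24 libraries. Across all 24 libraries 0 members rose between these times in GFP cells (background 5.49%) and 2 fell (background 4.28%), Acly by 0.38 and Fasn by 0.51 on the log2 scale. In EIF2A-GFP cells 0 rose (background 8.28%) and 4 fell (background 6.62%), namely Scap, Acat2, Acly and Fasn, by 0.43, 0.41, 0.42 and 0.56. An unadjusted p under 0.05 was found for 6 members in each construct. The paired fit called 5 as rising and 6 as falling in GFP cells (background 25.2% and 24.5%) and 3 and 6 in EIF2A-GFP cells (background 26.7% and 25.9%). Lss and Acaca were among those that rose in both, Lss by 0.37 and 0.29 and Acaca by 0.31 and 0.42. Without replicate 1, 3 rose and 8 fell in GFP cells (background 21% and 21.3%), and 3 rose and 13 fell in EIF2A-GFP cells (background 25.5% and 23.6%). Of those 13, 7 were sterol genes, for example Hmgcs1 at -0.49, Mvd at -0.43 and Fdps at -0.40. DESeq2 called 0 members as rising between 1 h and 3 h in either construct. The 2 that fell in GFP cells became 0 without replicate 2, 3 or 4, 1 without GFP 1 h replicate 3 or 4 or 3 h replicate 2 or 3, and 4 without 3 h replicate 1. The 4 in EIF2A-GFP cells became 0 without replicate 2 or 3, 1 without replicate 4, and 2 without EIF2A-GFP 3 h replicate 2.

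Among pairs of related genes, the ratio of Insig1 to Insig2 had higher means after thapsigargin than at 0 h, though no change of it passed the threshold after adjustment. The log2 ratio of their CPM was 1.77 ± 0.374 (SD, n = 4) in GFP cells at 0 h, 2.63 ± 0.13 at 1 h and 2.77 ± 0.416 at 3 h. In EIF2A-GFP cells it was 2.36 ± 0.171, 3.07 ± 0.384 and 3.06 ± 0.0757. An exact two-sided permutation test of 4 against 4 libraries cannot give a p below 0.029, and gave that value for both GFP changes and for EIF2A-GFP at 3 h (adjusted p = 0.069 over 12 tests). The ratio of Scd1 to Scd2 changed by 0.356 and 0.463 in EIF2A-GFP cells, also at that smallest p, and by 0.278 and 0.455 in GFP cells (exact permutation p = 0.46 and 0.37). For Srebf1 over Srebf2 the 4 changes lay between 0.202 and 0.292, with exact permutation p from 0.086 to 0.37. Without replicate 1 the Insig1 to Insig2 ratio changed by 0.996 and 0.988 in GFP cells and 0.847 and 0.667 in EIF2A-GFP cells, and an exact permutation test of 3 against 3 cannot go below 0.1.

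Between constructs, 0 members were called at 0, 1 or 3 h across all 24 libraries (background 0.0218%, 1.02% and 0% of genes in either direction). An unadjusted p under 0.05 was found for 6, 8 and 5 members, and DESeq2 called 0 at 0 h, 5 as higher and 0 as lower at 1 h, and 0 at 3 h. This comparison rests on the libraries numbered 1, whose Eif2a level goes against the labels. In replicate 1 the difference, library labelled EIF2A-GFP minus library labelled GFP, had the opposite sign to the mean of replicates 2 to 4 for 24 of 31 members at 0 h, 21 at 1 h and 16 at 3 h. Leaving out only EIF2A-GFP replicate 1 of the time compared gave 5 members higher at 0 h, 7 higher and 3 lower at 1 h, and 3 higher and 8 lower at 3 h. Leaving out GFP 1 h replicate 1 gave 1 higher at 1 h. The shares over all genes for these omissions and for DESeq2 are not given here, so nothing particular to the members is read from these counts.

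Without replicate 1, EIF2A-GFP cells at 0 h had 16 members higher (background 31.9%) and 9 lower (background 32.9%) than GFP cells. At 1 h 10 were higher (background 32.7%) and 12 lower (background 37.3%), and at 3 h 9 were higher (background 32.5%) and 15 lower (background 35.1%). The members' shares were close to these backgrounds, apart from those higher at 0 h and lower at 3 h. Reads without a feature made up 13.3 to 17.9% of counted reads in EIF2A-GFP replicates 2 to 4, over all times. In GFP replicates 2 to 4 they made up 10.9 to 13.0%. Counts assigned to genes numbered 10522758 to 16637281 in those EIF2A-GFP libraries and 16727921 to 22222701 in those GFP libraries. Whether this has a part in the differences between constructs was not tested. Mvd, the decarboxylase, differed most among the sterol genes, with 34.4, 37.1 and 35.3 CPM in GFP replicates 2 to 4 at 0 h and 67.9, 77.8 and 82.5 in EIF2A-GFP replicates 2 to 4. Its log2 difference was 1.09 ± 0.10 (adjusted p = 2.1e-08), and in replicate 1 the level was 53.4 CPM in the library labelled GFP and 39.9 in that labelled EIF2A-GFP. Mvk was higher by 0.86, 0.91 and 0.85 at 0, 1 and 3 h. Fdft1, Fdps, Ebp and Acaca were also higher at all 3 times, Fdft1 by 0.63, 0.53 and 0.40. Lower at all 3 times were Elovl6 (-0.86, -1.02 and -0.86), Insig2 (-0.63, -0.87 and -0.93), Scd1 (-0.51, -0.68 and -0.78), Stard4, Idi1, Hsd17b7, Sqle and Srebf2. Both branches thus held members in each direction, with 11 of 19 sterol genes higher and 5 lower at 0 h, and 4 of 7 fatty acid genes higher and 2 lower.

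**Figure D4:**
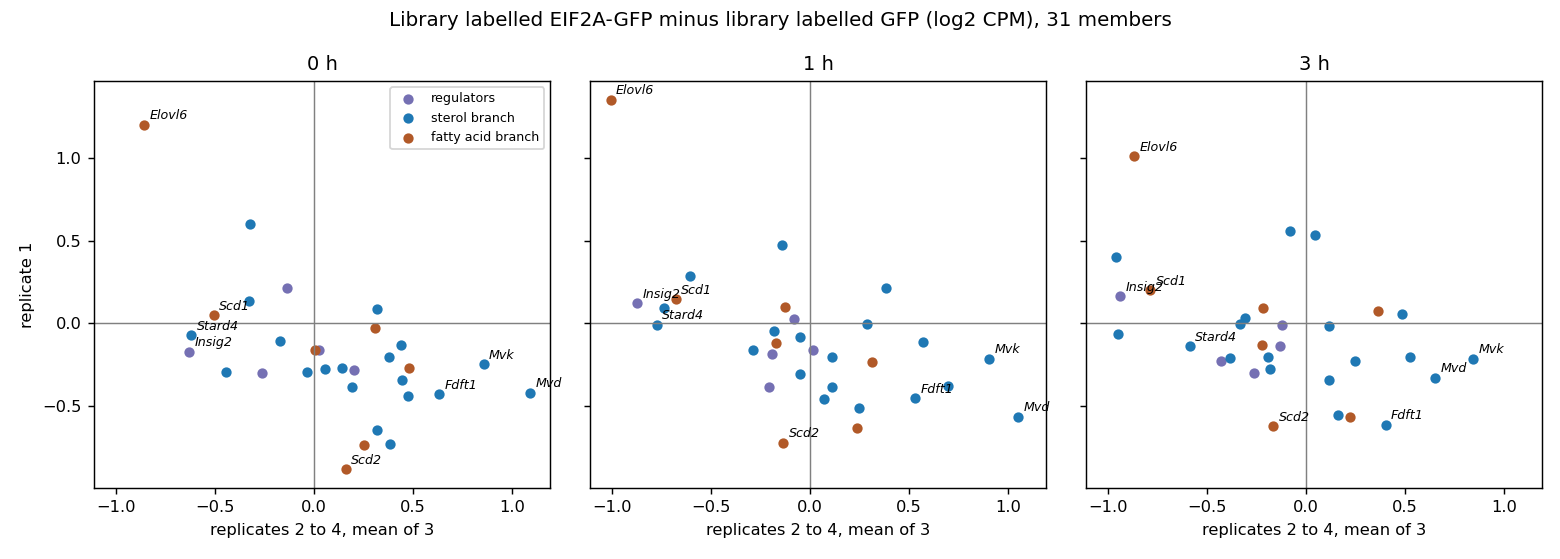
Log2 CPM difference of each of the 31 members, library labelled EIF2A-GFP minus library labelled GFP, as the mean of replicates 2 to 4 (horizontal) against replicate 1 (vertical) at 0, 1 and 3 h, coloured by branch. Points in the upper left and lower right of a panel have opposite signs, as 24, 21 and 16 of 31 do, with Elovl6 the farthest of these from the origin in each panel.

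The response to thapsigargin was also compared between constructs, as the EIF2A-GFP change minus the GFP change. Across all 24 libraries 0 members were called at 1 h (background 0%) or 3 h (background 0%), with 0 at an unadjusted p under 0.05 and 0 called by DESeq2. Without replicate 1, 0 were called at 1 h (9 at an unadjusted p under 0.05, background 0.816% of genes in either direction). At 3 h 0 members were positive (background 1.55%) and 8 were negative (background 2.57%), a larger share than among all genes. These were Insig1 (-0.63 ± 0.11, adjusted p = 0.0027), Hmgcs1 (-0.85 ± 0.13, adjusted p = 4.5e-04), Pmvk (-0.40), Msmo1 (-0.56) and Hsd17b7 (-0.63) on the sterol side. On the fatty acid side they were Acly (-0.23), Fasn (-0.53) and Scd2 (-0.32). In replicates 2 to 4, Hmgcs1 went from 195, 191 and 187 CPM at 0 h to 370.3, 359 and 339 at 3 h in GFP cells, and from 287, 262 and 247 to 304, 287 and 233 in EIF2A-GFP cells. The EIF2A-GFP cells thus started higher and ended lower for this gene. Across all 24 libraries the Hmgcs1 value was -0.46 (adjusted p = 1), so the 8 calls rest on leaving out the libraries numbered 1.

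Genes around these routes gave a mixed picture, counted across all 24 libraries. The lists were chosen for known roles, with earlier results of these data known. Beside these counts, 18.4% of all genes tested rose and 14.6% fell at 3 h in GFP cells, and 19.6% rose and 16.6% fell in EIF2A-GFP cells. Without replicate 1 the shares were 32.2% and 30.8%, and 31.2% and 31.4%. Of 15 genes of SREBP processing and sterol turnover, 2 rose and 3 fell at 3 h in GFP cells, and 2 rose and 4 fell in EIF2A-GFP cells. Without replicate 1 these were 3 and 6, and 4 and 7. Mbtps1, the protease that first cuts SREBPs in the Golgi, fell by 0.35 and 0.48 (adjusted p = 0.041 and 0.0057). Erlin2, which helps degrade the sterol sensor machinery, fell by 0.59 and 0.72, and Npc2, which moves cholesterol out of lysosomes, by 0.51 and 0.47. Of 8 genes of isoprenoid side branches, which draw on farnesyl diphosphate, 3 rose at 3 h in both constructs, and 0 fell in GFP and 2 in EIF2A-GFP cells. Without replicate 1, 3 rose and 2 fell in GFP cells and 3 rose and 3 fell in EIF2A-GFP cells. Pdss1 and Pdss2, which make the side chain of ubiquinone, changed by 0.93 and 0.65 in GFP cells and 1.04 and 0.73 in EIF2A-GFP cells. Ggps1, which makes geranylgeranyl diphosphate, changed by 0.52 and 0.71 (adjusted p = 9.4e-04 and 3.9e-05).

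Of 18 tested genes of other fatty acid synthesis, elongation and desaturation, 4 rose and 4 fell at 3 h in GFP cells, and 3 rose and 4 fell in EIF2A-GFP cells. These became 8 and 7, and 7 and 7, without replicate 1. Hacd3, a dehydratase of fatty acid elongation, fell by 0.75 and 0.94 (adjusted p = 3.5e-05 and 2.1e-06). Fads2, a desaturase of polyunsaturated fatty acids, rose by 0.27 and 0.39, and Oxsm, of mitochondrial fatty acid synthesis, by 0.62 and 0.47. Of 8 genes of glycerolipid synthesis and storage, 1 rose and 2 fell in GFP cells and 0 rose and 2 fell in EIF2A-GFP cells at 3 h, the phosphatase gene Lpin1 rising in GFP cells by 0.71 and Agpat3 falling by 0.56 and 0.63. Without replicate 1 this list had 2 rising and 4 falling in GFP cells and 1 and 3 in EIF2A-GFP cells. Of 9 genes of fatty acid oxidation, 2 rose at 1 h in GFP cells and 3 in EIF2A-GFP cells, where 1 fell, against 5.78% of all genes tested that rose in GFP cells and 6.55% that rose and 3.94% that fell in EIF2A-GFP cells. Without replicate 1, 5 rose and 1 fell in GFP cells and 5 rose and 2 fell in EIF2A-GFP cells at 1 h, where 21.2% and 20.2% of all genes rose. With 8 to 18 genes a list, nothing particular to a list is read from counts this small. Hadha and Hadhb, the subunits of the mitochondrial trifunctional protein, rose by 0.69 and 0.46 in GFP and 0.77 and 0.48 in EIF2A-GFP cells at 1 h. The medians of these 5 lists at 3 h lay between -0.15 and 0.07 in GFP cells and between -0.18 and 0.15 in EIF2A-GFP cells, while that of all 31 members was 0.16 and 0.18. These medians are across all 24 libraries and are not given without replicate 1. In EIF2A-GFP cells at 3 h, leaving it out moved the sterol mean from 0.207 to 0.119 and the fatty acid mean from -0.244 to -0.350. The EIF2A-GFP value of 0.18 is therefore not read as a trait of the members.

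Members differed widely in level. Divided by exonic length, the mean over all 24 libraries was 575 CPM per kb for Acly, 496 for Scd2 and 129 for Insig1. Pmvk, Hmgcs1, Srebf1 and Cyp51 followed at 84.2, 77.9, 73.5 and 59.3 CPM per kb. At the other end stood Hsd17b7, Acss2, Acaca and Idi1 at 3.84, 3.00, 2.94 and 2.66 CPM per kb. Among the regulators Srebf1 was the more abundant SREBP gene, at 73.5 against 25.2 CPM per kb for Srebf2, and Insig2 stood at 18.7 and Scap at 8.46. The order is by the union of exons in the GENCODE M21 annotation and does not account for which isoforms the cells use.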

How the data were processed

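RNA sequencing of MIN6 cells was deposited as 1 table of raw read counts per gene, made by the authors with bcl2fastq and STAR on mm10, per the submitters' processing notes, from a stranded mRNA kit, per the labels' protocols. The counting tool and its strand setting are not stated there. Reads without a feature (10.7 to 17.9% of counted reads in a library) and ambiguous reads were left out of library sizes. The members and all gene lists were chosen with earlier results of these data known. Genes passing filterByExpr (minimum count 10, total 15) were TMM-scaled and fitted with edgeR 4.0.16 (R 4.3.3, limma 3.58.1). Its robust quasi-likelihood test was run over 6 group means, with Benjamini-Hochberg adjustment over 13761 genes (13731 without replicate 1). The method was tested on simulated data with the same spread setting for every gene and no replicate effect. That trial does not cover libraries that stand apart, as replicate 1 does here. Values in every library were given for members called against 0 h across all 24 libraries, and for Acaca, which was not called there. At most 4 genes per related list were named, in order of significance. Alternatives were a replicate block, DESeq2 1.42.0, other scalings and filters, and left-out libraries. Deviations from group means of same-numbered libraries of a construct correlated above 0.1 in 24 of 24 pairs (0.51 to 0.93, median 0.668). The paired fit was made for this reason. Without replicate 1, 8 of 18 did so (-0.0264 to 0.312, median 0.0863), so the pairing rests largely on replicate 1. The paired fit called 15 members as rising at 1 h in GFP cells. No 2 libraries of a group agreed within sampling noise, by chi-square over degrees of freedom. Pairs with replicate 1 gave 64.1 to 144, and pairs among replicates 2 to 4 gave 1.32 to 19.1. P-values without replicate 1 thus measure a much smaller spread. Protein sequences were not used here.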

Additional observations from a re-analysis of the deposited data

Results flagged for a closer look

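Replicate 1 stood apart from the other 3 libraries of its group for many of the 31 members. Its gap to the nearest library, divided by the range of the group, exceeded Dixon's critical value (95%, 4 libraries) for 14 members in the libraries labelled GFP at 0 h, 6 at 1 h and 10 at 3 h. In the libraries labelled EIF2A-GFP it did so for 6 members at 0 h, 6 at 1 h and 3 at 3 h. All 45 such cases of 186 tests were replicate 1. Members measured in the same library are not independent, so this count cannot be set against a chance rate. These are the same 6 libraries whose Eif2a level goes against the labels.

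The change from 0 h to 3 h differed between constructs for 8 members when replicate 1 was left out, each with a lower change in the EIF2A-GFP cells (edgeR interaction term). Of all genes tested, 2.57% were called in this direction. The differences were -0.63 for Insig1, -0.85 for Hmgcs1, -0.40 for Pmvk, -0.56 for Msmo1 and -0.63 for Hsd17b7. For the fatty acid genes they were -0.23 for Acly, -0.53 for Fasn and -0.32 for Scd2, and the largest adjusted p of the 8 was 0.035. With all 24 libraries none of the 31 members passed, and 0 had an unadjusted p under 0.05.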

How the results depend on the processing

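With the replicate block, the members that rose and fell numbered 15 and 3 in GFP cells at 1 h, 16 and 7 at 3 h, and 5 and 6 from 1 h to 3 h, and in EIF2A-GFP cells 14 and 6, 14 and 8, and 3 and 6. Between constructs, with the replicate number shared by both constructs as the block, 0 and 2 members were called at 0 h, 3 and 6 at 1 h and 0 and 4 at 3 h, beside 725 and 608, 1419 and 1471, and 551 and 503 of the 13761 genes tested. Other settings that moved a count by over 1.5 times were no filter (0 rose in GFP cells at 1 h), library totals only (1 rose and 1 fell in GFP cells and 3 rose in EIF2A-GFP cells from 1 h to 3 h, and 9 rose in EIF2A-GFP cells at 3 h), and, for EIF2A-GFP against GFP at 1 h, DESeq2 (5 rose) and the stricter filter (1 rose). The branch difference from median levels was -0.132 and -0.156 in GFP and 0.186 and 0.0956 in EIF2A-GFP cells at 1 and 3 h, and from the median of member changes 0.377 in EIF2A-GFP cells at 3 h. The cause of these moves was not tested.

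Leaving out 1 replicate or 1 library at a time, the members that rose ranged from 0 to 16 and those that fell from 0 to 4 in GFP cells at 1 h, from 4 to 17 and 1 to 7 at 3 h, and from 0 to 3 and 0 to 8 from 1 h to 3 h. In EIF2A-GFP cells the ranges were 0 to 14 and 0 to 6, 1 to 10 and 3 to 8, and 0 to 3 and 0 to 13. Between constructs they were 0 to 16 and 0 to 9 at 0 h, 0 to 10 and 0 to 12 at 1 h, and 0 to 9 and 0 to 15 at 3 h, and for the interaction at 3 h 0 to 8 fell. Of these settings, shares over all genes are given above only for leaving out replicate 1. Over the same settings some construct differences changed sign with a call in either fit compared. At 0 h these were Msmo1 (-0.17 to 0.44), Scd2 (-0.29 to 0.17) and Acss2 (-0.13 to 0.25), and at 3 h Lss (-0.13 to 0.16). Without replicate 1 the values were 0.38, 0.16, 0.25 and 0.16. Other members changed sign with no call and are not listed. For example, mean Cyp51 at 0 h was 190 CPM in EIF2A-GFP and 197 in GFP cells, and 177 and 170 without replicate 1. Counts limit Idi1 most, with as few as 47 reads in a library.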
